A study of Mus musculus with 24 samples.

Results

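The genes described here are 41 interferon-stimulated genes, taken by symbol from a list of genes known to be switched on by interferons. The list was chosen with earlier results of these data known, so the shares called or higher below are not independent of these counts. All 41 were among the 24062 genes of the count table, and all 41 passed the filter on low counts that left 16313 genes for testing. They were measured by RNA sequencing of the hippocampus of C57BL/6 mice in a design that crossed genotype with social stress. Mice carrying a knockout of the interleukin-1 receptor gene Il1r1, which the title of the series restricts to neurons (KO), or wild-type mice (WT), went through social defeat by paired fighting (stress) or served as controls. There were 5 KO stress, 6 KO control, 6 WT stress and 7 WT control libraries. The sources used here do not give the driver of the neuronal deletion, the age and sex of the mice or the time of sampling. Nor do the labels tie the libraries to different mice, so a p-value describes the spread among the libraries, part of which may be technical.

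Interferons are secreted antiviral proteins that bind receptors on the cell surface and act through Janus kinases on STAT transcription factors. Type I interferons drive a complex with STAT2 and IRF9 that binds the interferon-stimulated response element (ISRE), and the response to type II interferon runs through the gamma-activated sequence (GAS). In the brain, the genes they induce are expressed at a low level in many cell types and are known to rise in microglia, endothelium and other cells during infection and inflammation.

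The regulatory sequence upstream of the genes is shown because the members are grouped by this shared control. RefSeq promoter windows, from 250 bases before to 50 bases after a transcription start on the GRCm38.p6 build, were found for 35 of the 41 members, in 43 windows. An ISRE match (GAAANNGAAA on either strand, overlapping matches counted) was present in 18 of the 35 members, or 51.4%, against 3.99% of all 27025 genes with a window. A GAS match (TTCNNNGAA on either strand) was present in 10 of the 35, or 28.6%, against 9.55% of all genes with a window. A match is a description of the letters, and its absence says only that they are not in this window.

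Each of 4 members below has an ISRE match, shown in capitals in a window written 5′ to 3′ along the gene's strand. Isg15 lies on the minus strand (window chr4:156200769-156201068) with 3 overlapping matches whose first bases are at -78, -72 and -66 from the start. Ifitm3 (minus strand, chr7:141010695-141010994) has matches at 3 and 20, counted from 1 at the first transcribed base. Ifit3 (plus strand, chr19:34583279-34583578) has matches at -156 and -122, and Rsad2 (minus strand, chr12:26456403-26456702) has 1 at -120.
Isg15: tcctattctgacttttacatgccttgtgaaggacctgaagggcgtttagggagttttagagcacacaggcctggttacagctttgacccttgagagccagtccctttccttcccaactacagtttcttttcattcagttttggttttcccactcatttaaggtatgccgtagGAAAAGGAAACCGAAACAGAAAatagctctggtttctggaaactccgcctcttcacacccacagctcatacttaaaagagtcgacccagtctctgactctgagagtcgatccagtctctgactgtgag
Ifitm3: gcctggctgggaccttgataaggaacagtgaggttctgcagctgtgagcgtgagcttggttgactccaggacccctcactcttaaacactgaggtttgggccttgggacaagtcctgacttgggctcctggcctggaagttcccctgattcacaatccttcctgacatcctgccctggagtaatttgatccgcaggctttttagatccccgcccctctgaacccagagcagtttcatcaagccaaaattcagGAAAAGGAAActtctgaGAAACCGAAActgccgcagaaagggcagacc
Ifit3: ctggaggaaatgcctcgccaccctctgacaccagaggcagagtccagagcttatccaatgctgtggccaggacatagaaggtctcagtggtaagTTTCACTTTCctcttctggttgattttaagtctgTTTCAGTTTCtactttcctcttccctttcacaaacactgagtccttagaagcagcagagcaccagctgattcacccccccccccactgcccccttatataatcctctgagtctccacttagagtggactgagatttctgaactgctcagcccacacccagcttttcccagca
Rsad2: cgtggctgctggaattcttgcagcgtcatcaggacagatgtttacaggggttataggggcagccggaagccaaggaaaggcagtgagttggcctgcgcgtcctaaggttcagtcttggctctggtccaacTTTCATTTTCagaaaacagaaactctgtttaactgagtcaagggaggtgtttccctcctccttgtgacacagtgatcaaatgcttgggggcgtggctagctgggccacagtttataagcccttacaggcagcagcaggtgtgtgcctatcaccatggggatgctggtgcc

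The members Isg20 and Ube2l6, which had the 2 lowest p-values under stress, had no ISRE match in any window. For Isg20, the first of 3 windows (plus strand, chr7:78913174-78913473) had a GAS match at -73, in capitals. The window of Ube2l6 (plus strand, chr2:84798578-84798877) held neither motif and is shown in lower case.
Isg20: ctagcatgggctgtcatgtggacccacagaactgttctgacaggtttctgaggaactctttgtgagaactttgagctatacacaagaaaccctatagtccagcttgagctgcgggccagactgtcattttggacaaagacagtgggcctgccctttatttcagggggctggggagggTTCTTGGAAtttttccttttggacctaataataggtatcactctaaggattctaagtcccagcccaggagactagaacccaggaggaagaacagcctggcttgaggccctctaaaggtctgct
Ube2l6: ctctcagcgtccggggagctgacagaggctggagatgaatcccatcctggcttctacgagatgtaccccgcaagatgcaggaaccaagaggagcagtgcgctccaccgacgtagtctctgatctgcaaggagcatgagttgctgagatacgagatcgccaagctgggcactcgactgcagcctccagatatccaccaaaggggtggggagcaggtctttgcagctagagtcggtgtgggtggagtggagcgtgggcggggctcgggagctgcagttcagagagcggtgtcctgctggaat

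Depth ran from 25711872 to 35148198 counts per library, so that 3 reads corresponded to 0.0853 to 0.117 counts scaled by library size (CPM, the usual unit for this scaling). Il1r1, the targeted gene, averaged 5.54 ± 1.77 CPM in KO stress, 3.44 ± 1.21 CPM in KO control, 5.56 ± 1.45 CPM in WT stress and 3.35 ± 1.31 CPM in WT control libraries (SD, n = 5, 6, 6 and 7). These levels do not check the genotype labels, since the deletion is restricted to neurons and the sources used here do not give the deleted part of the gene. The libraries also stood apart by replicate number. The 45S ribosomal precursor transcript Rn45s had 4107 to 8786 CPM in 13 libraries with higher numbers and 24238 to 50453 CPM in 11 with lower numbers, and both classes held libraries of every group. Summed markers of the neighbouring thalamus and habenula reached 816 CPM in KO stress replicate 3, 623 CPM in KO stress replicate 5 and 774 CPM in WT stress replicate 5, and lay at 106 to 564 CPM in the other libraries. Of the 12 hippocampal neuron markers, all 12 were detected. Their sums were 649 to 1449 CPM in the libraries with higher numbers and 501 to 661 CPM in those with lower numbers.

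The members were expressed at low levels. Over all 24 libraries 8 members averaged at least 10 CPM, 31 lay between 1 and 10 CPM, and Oas2 and Ifi44 lay under 1 CPM. Per kilobase of exon, which allows levels to be compared between genes, Ifi27 had the highest level at 26.6 ± 4.74 CPM per kb (SD over 24 libraries). It was followed by the membrane protein genes Ifitm3 at 23.1 ± 8.38 and Ifitm2 at 19.5 ± 5.38 CPM per kb, and the spreads of these 3 members overlapped. After a gap came Lgals3bp at 6.24 ± 1.35 CPM per kb, and the lowest were Oas2 at 0.188 ± 0.0807 and Ifi44 at 0.0998 ± 0.0466 CPM per kb. The mean coefficient of variation within groups was lowest for Stat2 at 9.90% and highest for Ifi44 at 45.6%, Rsad2 at 40.3% and Oas1a at 40.2%, which are among the members with few reads.

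**Figure D1:**
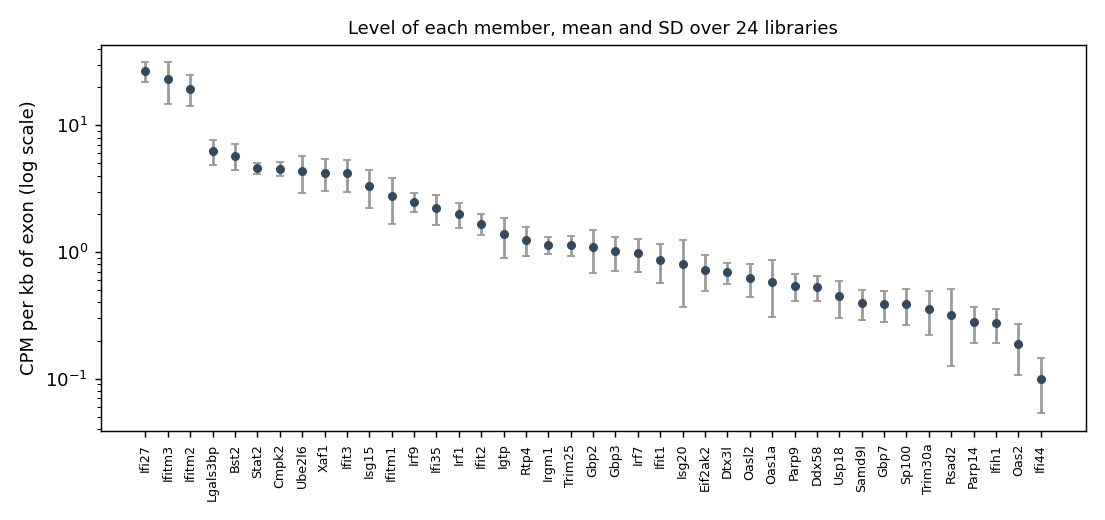
Level of each of the 41 members as CPM per kb of exon on a log axis, mean and SD over all 24 libraries, in order of the mean. Ifi27, Ifitm3 and Ifitm2 stand at 19.5 to 26.6 CPM per kb, apart from the other 38 members, which reach at most 6.24 CPM per kb.

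Under stress, most members stood higher than in controls in both genotypes, with 0 members past the test in KO and 3 in WT. In KO mice no member was called by the quasi-likelihood test of edgeR with adjustment over all 16313 genes (threshold 0.05), against 0.00613% of all genes (1 gene) called higher. Ube2l6 had the lowest adjusted p there, 0.640, and DESeq2 also called no member. The log2 fold change of KO stress against KO control was above 0 for 35 members (85.4%, against 51.4% of all genes), with a median of 0.27, against 0.0051 for all genes. An unadjusted p under 0.05 was found on the higher side for 7 members (17.1%, against 2.26% of all genes). The median in KO was 0.31 in the high-numbered and 0.21 in the low-numbered libraries alone and 0.22 without the 3 libraries with high thalamic markers, and no member was called in any of these. Summed markers of the choroid plexus, the tissue that makes cerebrospinal fluid, were 803 to 2073 CPM in KO stress, against 32.0 to 1892 CPM in KO control, and all 10 had a log2 fold change above 0 in KO (median 0.88). In WT stress the sums were 23.5 to 2164 CPM, against 66.0 to 2582 CPM in WT control, and none of the 10 was above 0 (median -0.49). No marker of that list passed the test in either genotype or was at 0 in every library, and the part of this tissue in the members' values was not tested.

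In WT mice Isg20, Ube2l6 and Ifitm1 rose in the same test and no member fell. These 3 of 41 members are 7.32%, against 0.135% of all tested genes called higher. The log2 fold change of WT stress against WT control was above 0 for 37 members (90.2%, against 49.5% of all genes), with a median of 0.33, against -0.0013 for all genes. On the higher side 16 members had an unadjusted p under 0.05 (39.0%, against 2.97% of all genes). Without the 3 libraries with high thalamic markers the median in WT was 0.20. Only WT stress replicate 5 among them is WT, and without that library alone the median was also 0.20. Directions were above 0 in both genotypes for 32 members, above 0 in KO alone for Dtx3l, Eif2ak2 and Irf1, above 0 in WT alone for Bst2, Gbp7, Ifit2, Stat2 and Xaf1, and below 0 in both for Cmpk2.

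The difference between the KO and the WT stress effect was tested as an interaction, and no member passed in edgeR, against 0% of all genes, nor in DESeq2. Irf7 (-0.59 ± 0.28), Irf9 (-0.38 ± 0.17) and Oas2 (-0.96 ± 0.43) had an unadjusted p under 0.05, all with the smaller effect in KO, and on that side 1.05% of all genes had one. The interaction was above 0 for 15 members (36.6%, against 50.3% of all genes), with a median of -0.08, against 0.0012 for all genes. The stress effects in KO and in WT were therefore not shown to differ for any member.

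With the stress effect averaged over both genotypes, Ube2l6, Isg20, Ifitm1 and Ifitm3 rose (adjusted p = 0.000602, 0.000983, 0.0297 and 0.0328 in edgeR) and no member fell. These are 9.76% of the members, against 0.208% of all genes called higher and 0.00613% called lower. The averaged effect was above 0 for 37 members (90.2%, against 50.5% of all genes), with a median of 0.31, against 0.0011 for all genes. Of the members, 19 had an unadjusted p under 0.05 on the higher side (46.3%, against 4.09% of all genes). Without the 3 libraries with high thalamic markers the median was 0.21 and the calls of Ube2l6 and Isg20 remained.

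**Figure D2:**
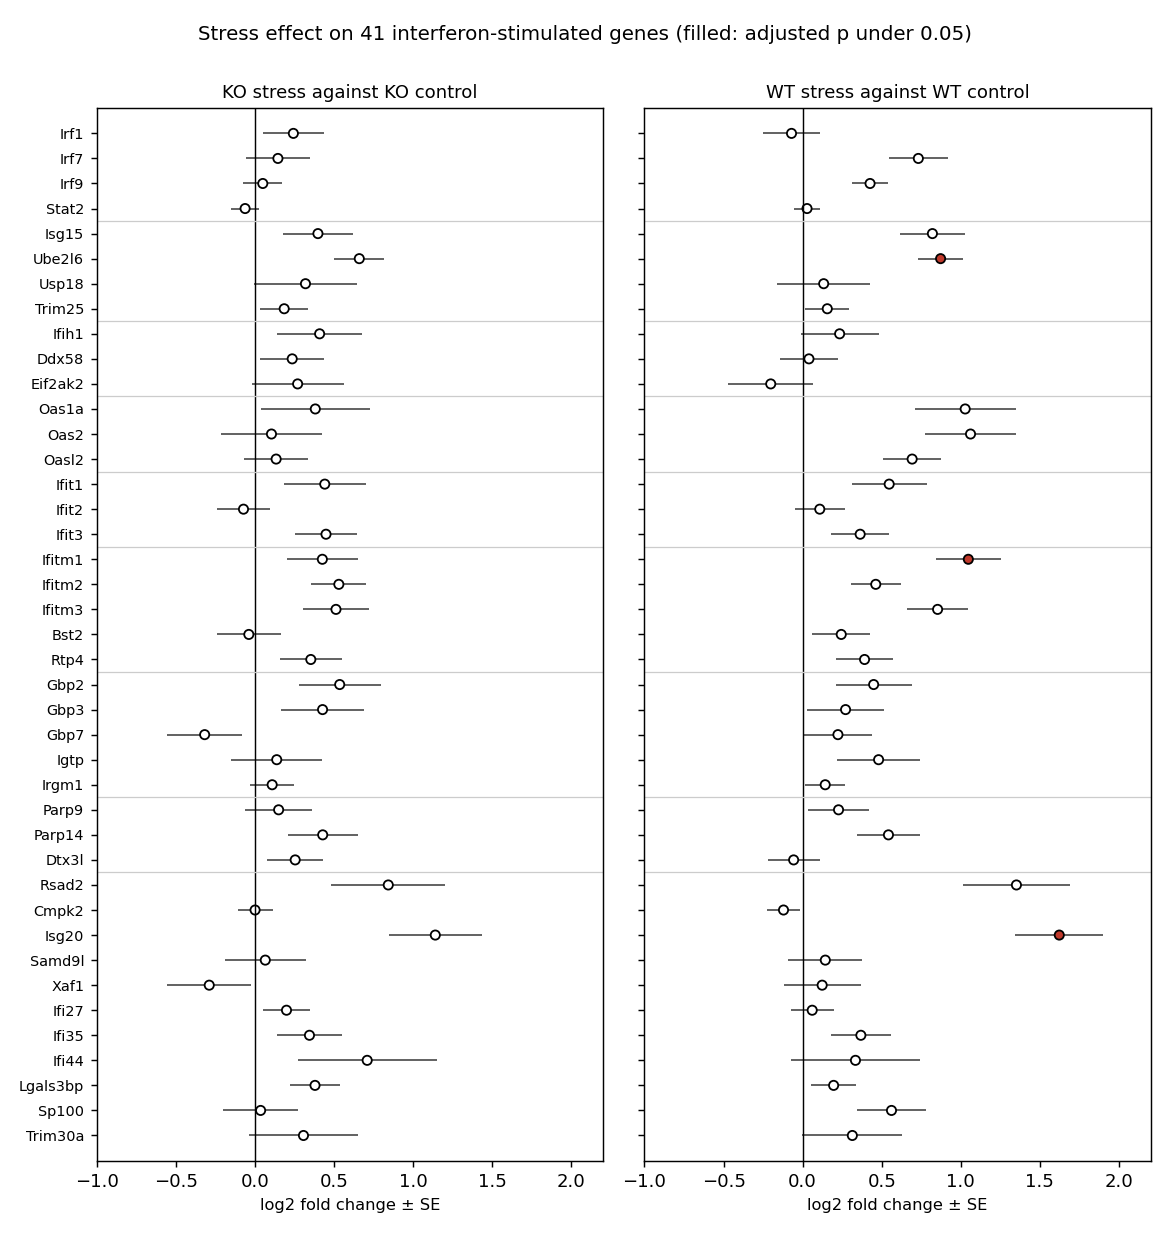
Log2 fold change ± SE of stress against control for the 41 members in KO (left) and WT (right) mice, ordered by role, with filled points for an adjusted p under 0.05 in edgeR. Most points lie right of 0 in both panels, 35 in KO and 37 in WT, and Isg20, Ube2l6 and Ifitm1 are filled in WT.

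Among the transcription factors, Irf7, which drives transcription of type I interferons and many antiviral genes, had 3.29, 5.304, 3.96, 3.84 and 3.26 CPM in the 5 stress libraries, against 2.71, 3.51 and 4.76 CPM in controls of KO mice, where each set of 3 values gives the lowest, median and highest library. In WT mice Irf7 had 3.58, 4.32 and 6.74 CPM under stress, against 1.66, 2.87 and 3.54 CPM in controls. The KO groups overlapped, whereas every WT stress library stood above every WT control library, by a narrow margin. Its log2 fold change was 0.14 ± 0.20 in KO and 0.73 ± 0.19 in WT (adjusted p = 0.179, edgeR). Exons of Irf7 overlap those of Phrf1 on the other strand, and the sources used here do not say whether the counting used strand. Irf9, the DNA-binding part of the complex with STAT2, had 14.9, 13.2, 13.96, 13.4 and 15.8 CPM in the 5 stress libraries, against 11.7, 14.5 and 15.6 CPM in controls of KO mice. In WT mice Irf9 had 13.03, 15.5 and 15.8 CPM under stress, against 8.32, 10.7 and 15.5 CPM in controls. The KO groups overlapped broadly, and the WT groups through 1 high control library. Its log2 fold change was 0.05 ± 0.12 in KO and 0.43 ± 0.11 in WT (adjusted p = 0.217, edgeR), and its exons overlap those of Rnf31 on the same strand.

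Stat2, whose protein is the partner of IRF9, had 27.6, 20.5, 25.03, 28.4 and 31.02 CPM in the 5 stress libraries, against 23.6, 28.3 and 31.1 CPM in controls of KO mice. In WT mice Stat2 had 24.98, 26.8 and 29.7 CPM under stress, against 24.1, 26.2 and 30.4 CPM in controls. All 4 groups lay over one another, with log2 fold changes of -0.06 ± 0.09 in KO and 0.03 ± 0.08 in WT and the smallest spread of all members. Irf1, a factor induced mainly by type II interferon, had 6.61, 8.58, 6.44, 10.4 and 8.95 CPM in the 5 stress libraries, against 4.85, 6.98 and 10.2 CPM in controls of KO mice. In WT mice Irf1 had 5.74, 8.29 and 10.04 CPM under stress, against 5.75, 9.35 and 10.5 CPM in controls. The stress and control groups overlapped in both genotypes, with log2 fold changes of 0.24 ± 0.19 in KO and -0.07 ± 0.18 in WT.

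Isg15 encodes a ubiquitin-like protein that is attached to other proteins, and Ube2l6 the conjugating enzyme that attaches it. Ube2l6 (chr2:84798828-84810335, plus strand) had 9.21, 8.97, 9.596, 13.7 and 12.9 CPM in the 5 stress libraries, against 5.86, 6.69 and 8.57 CPM in controls of KO mice. In WT mice Ube2l6 had 9.14, 11.2 and 13.6 CPM under stress, against 4.32, 5.999 and 8.35 CPM in controls. It was the only member whose stress libraries all stood above the controls in both genotypes, which held for 3 of 16313 genes (0.0184%). The log2 fold change in KO was 0.66 ± 0.16 (adjusted p = 0.640, edgeR), and in WT Ube2l6 rose by 0.87 ± 0.14, or 1.83-fold (adjusted p = 0.00524).

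Isg15 (chr4:156199424-156200818, minus strand), with the 3 overlapping ISRE matches shown above, had 2.63, 3.52, 3.69, 2.27 and 2.99 CPM in the 5 stress libraries, against 1.67, 1.92 and 3.82 CPM in controls of KO mice. In WT mice Isg15 had 2.33, 3.18 and 4.01 CPM under stress, against 1.26, 1.89 and 2.28 CPM in controls. The KO groups overlapped, with KO control replicate 1 above all 5 KO stress libraries, and the WT groups did not overlap. Isg15 had a log2 fold change of 0.40 ± 0.22 in KO and 0.82 ± 0.20 in WT (adjusted p = 0.161, edgeR). Usp18, whose product removes ISG15 from proteins, had 0.32 ± 0.32 in KO and 0.13 ± 0.29 in WT, and the ligase gene Trim25 had 0.18 ± 0.15 and 0.16 ± 0.14.

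No sensor of viral RNA passed the test. Ifih1, the gene of the RNA sensor MDA5, had 2.77, 2.63, 1.95, 3.29 and 3.42 CPM in the 5 stress libraries, against 1.58, 2.001 and 3.05 CPM in controls of KO mice. In WT mice Ifih1 had 0.705, 2.44 and 3.35 CPM under stress, against 1.55, 1.798 and 2.59 CPM in controls. Its groups overlapped in both genotypes, with log2 fold changes of 0.41 ± 0.27 in KO and 0.23 ± 0.25 in WT. Eif2ak2, the gene of the RNA-activated kinase PKR, had 3.01, 4.66, 4.43, 3.44 and 5.197 CPM in the 5 stress libraries, against 1.64, 4.03 and 4.51 CPM in controls of KO mice. In WT mice Eif2ak2 had 1.95, 2.89 and 5.77 CPM under stress, against 2.098, 3.91 and 5.03 CPM in controls. The groups again overlapped, and the log2 fold changes were 0.27 ± 0.29 in KO and -0.20 ± 0.27 in WT, the lowest of the 41 in WT. Ddx58, the gene of the sensor RIG-I, had 0.23 ± 0.20 in KO and 0.04 ± 0.19 in WT.

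The oligoadenylate synthetases make a messenger that activates the ribonuclease RNase L. Oas2 had 0.796, 0.748, 0.503, 0.804 and 1.22 CPM in the 5 stress libraries, against 0.4799, 0.642 and 1.15 CPM in controls of KO mice. In WT mice Oas2 had 0.762, 1.14 and 1.76 CPM under stress, against 0.251, 0.585 and 0.883 CPM in controls. The KO groups overlapped broadly, and the WT groups through 1 library on each side. Oas2 had a log2 fold change of 0.10 ± 0.32 in KO and 1.06 ± 0.29 in WT (adjusted p = 0.245, edgeR). Oasl2 had 4.43, 4.13, 4.395, 3.36 and 4.67 CPM in the 5 stress libraries, against 2.81, 3.67 and 5.18 CPM in controls of KO mice. In WT mice Oasl2 had 2.86, 4.74 and 6.99 CPM under stress, against 2.45, 2.89 and 4.15 CPM in controls. Both pairs of groups overlapped, with log2 fold changes of 0.13 ± 0.20 in KO and 0.69 ± 0.18 in WT (adjusted p = 0.217, edgeR). Oas1a had 0.38 ± 0.35 in KO and 1.03 ± 0.32 in WT, and since it has near-identical copies its counts are uncertain.

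The IFIT proteins bind foreign RNA. Ifit3, with the ISRE matches shown above, had 9.24, 12.96, 7.08, 6.62 and 6.91 CPM in the 5 stress libraries, against 4.89, 6.203 and 7.796 CPM in controls of KO mice. In WT mice Ifit3 had 5.33, 7.34 and 12.6 CPM under stress, against 4.99, 6.37 and 7.51 CPM in controls. The groups overlapped in both genotypes, with log2 fold changes of 0.45 ± 0.20 in KO and 0.36 ± 0.18 in WT. Ifit1 had 2.77, 2.71, 3.39, 1.499 and 3.03 CPM in the 5 stress libraries, against 0.908, 2.07 and 2.65 CPM in controls of KO mice. In WT mice Ifit1 had 1.67, 2.56 and 4.21 CPM under stress, against 1.43, 1.91 and 2.23 CPM in controls. These groups overlapped as well, and the log2 fold changes were 0.44 ± 0.26 in KO and 0.55 ± 0.24 in WT, while Ifit2 had -0.07 ± 0.17 and 0.11 ± 0.16. Ifit2 and Ifit3 lie 7111 bp apart on chromosome 19. The family has similar copies, so its reads may be split between genes.

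IFITM proteins sit in membranes and hinder the fusion of viruses with the cell. Ifitm1 (chr7:140967221-140969825, plus strand) had 2.49, 2.99, 2.82, 3.14 and 4.74 CPM in the 5 stress libraries, against 1.58, 2.24 and 3.32 CPM in controls of KO mice. In WT mice Ifitm1 had 2.79, 4.87 and 5.86 CPM under stress, against 1.51, 2.05 and 2.796 CPM in controls. The KO groups overlapped, whereas in WT 1 stress library lay just below the highest control and the others stood above all controls. The log2 fold change was 0.43 ± 0.22 in KO, and in WT Ifitm1 rose by 1.05 ± 0.21, or 2.07-fold (adjusted p = 0.0262, edgeR). The WT call was lost without the 3 libraries with high thalamic markers (0.95, adjusted p = 0.0987 in edgeR), of which only WT stress replicate 5 is WT. It was kept in 15 of the 24 fits that each left out a single library, and what the losses reflect was not tested.

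Ifitm3 (chr7:141009586-141010770, minus strand) had 12.3, 16.5, 16.8, 18.8 and 21.8 CPM in the 5 stress libraries, against 9.91, 11.98 and 15.3 CPM in controls of KO mice. In WT mice Ifitm3 had 15.8, 21.1 and 31.5 CPM under stress, against 6.94, 12.9 and 17.8 CPM in controls. The stress libraries were mostly the higher ones in both genotypes, with overlap. Its log2 fold change was 0.51 ± 0.21 in KO and 0.85 ± 0.19 in WT (adjusted p = 0.0900, edgeR), and Ifitm3 rose in the average of both (0.68 ± 0.14, adjusted p = 0.0328). Ifitm2 had 13.9, 12.03, 13.9, 15.9 and 14.5 CPM in the 5 stress libraries, against 8.22, 9.49 and 12.2 CPM in controls of KO mice. In WT mice Ifitm2 had 12.4, 16.1 and 20.1 CPM under stress, against 7.24, 10.6 and 18.8 CPM in controls. The KO groups overlapped narrowly, and the WT groups through 2 high control libraries. Ifitm2 had a log2 fold change of 0.53 ± 0.17 in KO and 0.46 ± 0.16 in WT (adjusted p = 0.681, edgeR). The 3 genes form a cluster on chromosome 7, with 11233 bp between Ifitm2 and Ifitm1 and 39760 bp between Ifitm1 and Ifitm3, and near-identical copies make their counts uncertain. Of the other membrane and trafficking factors, the virus tether gene Bst2 had -0.04 ± 0.20 in KO and 0.24 ± 0.18 in WT, and Rtp4 had 0.35 ± 0.19 and 0.39 ± 0.18.

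**Figure D3:**
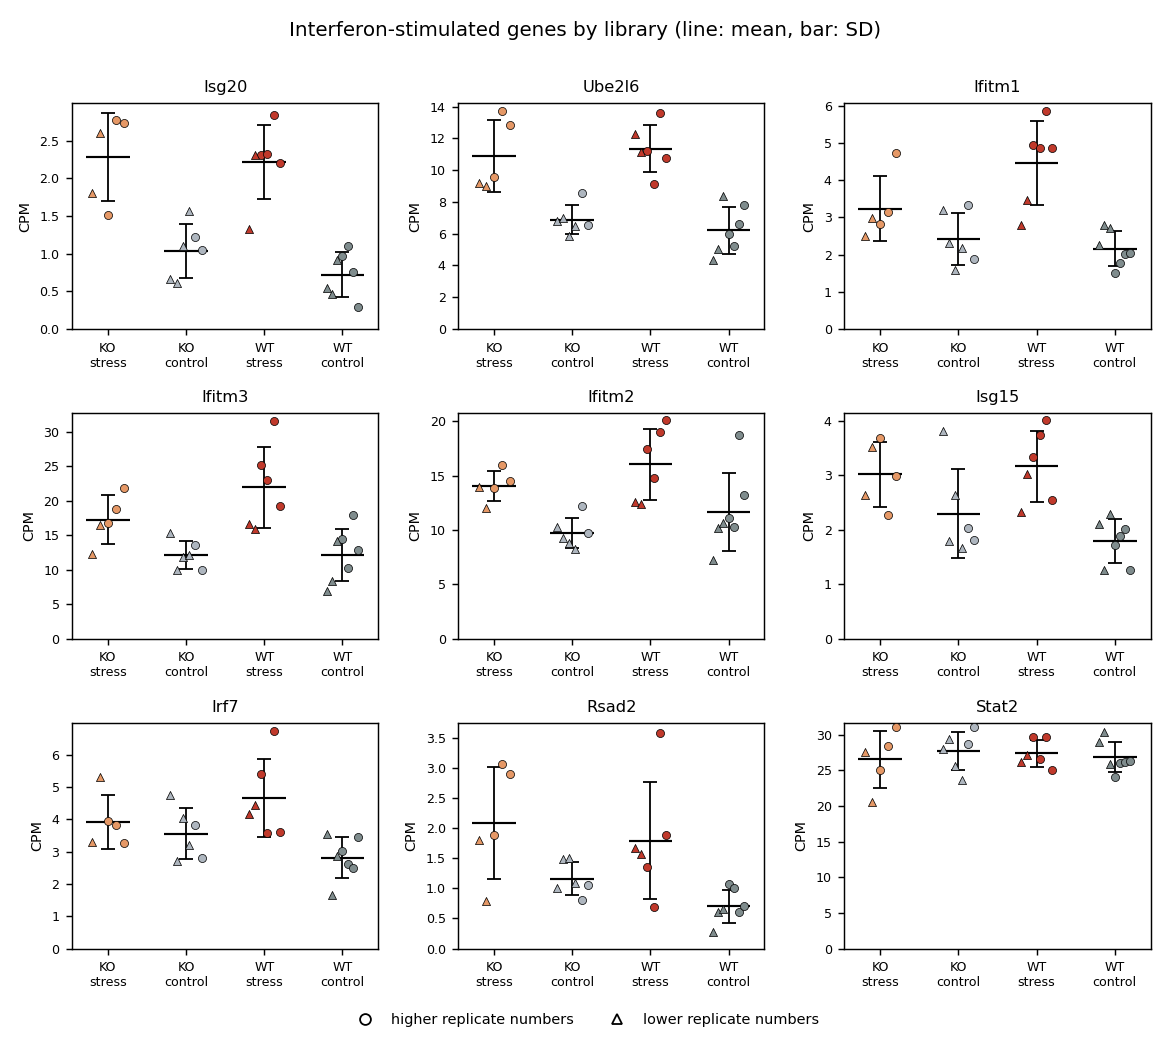
CPM in every library for 9 members, by group, with the mean and SD; circles are libraries with higher and triangles those with lower replicate numbers. The Ube2l6 stress libraries, at 8.97 to 13.7 CPM, stand above the controls of their genotype, and the Stat2 groups lie over one another between 20.5 and 31.1 CPM.

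Interferon-induced GTPases attack the membranes around pathogens inside cells. Gbp2 had 2.63, 2.71, 3.72, 3.14 and 5.46 CPM in the 5 stress libraries, against 1.76, 2.42 and 3.05 CPM in controls of KO mice. In WT mice Gbp2 had 1.82, 2.53 and 5.23 CPM under stress, against 1.36, 1.99 and 3.32 CPM in controls. The groups overlapped in both genotypes, with log2 fold changes of 0.53 ± 0.26 in KO and 0.45 ± 0.24 in WT. Gbp3 had 2.73, 2.85, 4.496, 4.204 and 4.803 CPM in the 5 stress libraries, against 2.38, 2.599 and 4.05 CPM in controls of KO mice. In WT mice Gbp3 had 1.81, 3.55 and 4.86 CPM under stress, against 1.32, 2.82 and 4.59 CPM in controls. These groups overlapped too, with log2 fold changes of 0.43 ± 0.26 and 0.27 ± 0.24. Igtp had 2.67, 2.88, 2.75, 2.08 and 4.61 CPM in the 5 stress libraries, against 2.06, 2.98 and 3.21 CPM in controls of KO mice. In WT mice Igtp had 1.498, 3.09 and 5.27 CPM under stress, against 1.36, 2.56 and 3.42 CPM in controls. Its groups overlapped, with 0.14 ± 0.29 in KO and 0.48 ± 0.26 in WT, and its exons overlap those of Irgm2. Gbp7, 9876 bp from Gbp3, had -0.32 ± 0.24 in KO and 0.22 ± 0.22 in WT, and Irgm1 had 0.11 ± 0.14 and 0.14 ± 0.13. Guanylate-binding protein genes are similar in sequence, which makes the split of their reads uncertain.

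PARP9 and DTX3L form a complex that modifies proteins, and PARP14 is an ADP-ribosyltransferase. Parp14 had 2.28, 2.92, 2.72, 2.56 and 4.21 CPM in the 5 stress libraries, against 1.86, 2.15 and 2.58 CPM in controls of KO mice. In WT mice Parp14 had 1.67, 2.94 and 4.76 CPM under stress, against 1.65, 2.35 and 2.58 CPM in controls. Groups overlapped in both genotypes, with log2 fold changes of 0.43 ± 0.22 in KO and 0.54 ± 0.20 in WT (adjusted p = 0.829, edgeR). Parp9 had 2.91, 2.14, 2.89, 1.97 and 4.11 CPM in the 5 stress libraries, against 2.14, 2.58 and 2.98 CPM in controls of KO mice. In WT mice Parp9 had 1.95, 2.63 and 4.12 CPM under stress, against 1.91, 2.23 and 3.14 CPM in controls. Its groups overlapped, at 0.15 ± 0.21 in KO and 0.23 ± 0.19 in WT. Dtx3l had 0.25 ± 0.18 in KO and -0.06 ± 0.16 in WT, and its exons overlap those of Parp9 on the other strand.

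Among the other effectors, Isg20 (chr7:78913424-78920396, plus strand), the gene of an exonuclease that degrades RNA, had 1.8, 2.599, 1.51, 2.78 and 2.73 CPM in the 5 stress libraries, against 0.611, 1.07 and 1.56 CPM in controls of KO mice. In WT mice Isg20 had 1.32, 2.31 and 2.84 CPM under stress, against 0.292, 0.754 and 1.11 CPM in controls. In KO 1 stress library lay just below the highest control, and in WT every stress library stood above every control. The log2 fold change in KO was 1.14 ± 0.30 (adjusted p = 0.931, edgeR), and in WT Isg20 rose by 1.62 ± 0.28, or 3.08-fold (adjusted p = 0.00658). Each was the highest value of the 41 members in its genotype.

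Rsad2, the gene of viperin, which makes a nucleotide that stops viral polymerases, had 1.8, 0.783, 1.88, 3.07 and 2.89 CPM in the 5 stress libraries, against 0.813, 1.07 and 1.51 CPM in controls of KO mice. In WT mice Rsad2 had 0.686, 1.62 and 3.58 CPM under stress, against 0.272, 0.662 and 1.08 CPM in controls. The groups overlapped in both genotypes, with most stress libraries above the controls. Rsad2 had a log2 fold change of 0.84 ± 0.36 in KO and 1.35 ± 0.34 in WT (adjusted p = 0.162, edgeR). Cmpk2, a nucleotide kinase gene that lies 12751 bp from Rsad2 on chromosome 12 and runs the other way, had -0.00 ± 0.11 in KO and -0.12 ± 0.10 in WT. The other 8 effectors had log2 fold changes from -0.29 ± 0.27 (Xaf1) to 0.71 ± 0.44 (Ifi44) in KO and from 0.06 ± 0.13 (Ifi27) to 0.56 ± 0.22 (Sp100) in WT, and none passed the test.

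All KO stress libraries stood above all KO control libraries in 1 member, Ube2l6, against 0.233% of all genes. In WT this held for 4 members, Isg20, Ube2l6, Isg15 and Irf7, against 0.221% of all genes. Seen by library, 24, 25, 32, 24 and 37 of the 41 members lay above their own median over the 24 libraries in KO stress, against 29, 13, 13, 13, 15 and 10 in KO control. In WT stress the numbers were 18, 27, 38, 23, 40 and 24, against 14, 11, 9, 9, 9, 19 and 16 in WT control. No such count was made over all genes, so these numbers do not set the members apart from other genes. KO stress replicate 5 and WT stress replicates 3 and 5 were the highest, KO control replicate 1 stood above the other KO controls, and WT stress replicate 1 lay within the WT control range. Without KO control replicate 1 the averaged effect had 6 members called, and without WT stress replicate 5 the median log2 fold change in WT was 0.20. The share of all genes called without KO control replicate 1 is not given here.

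**Figure D4:**
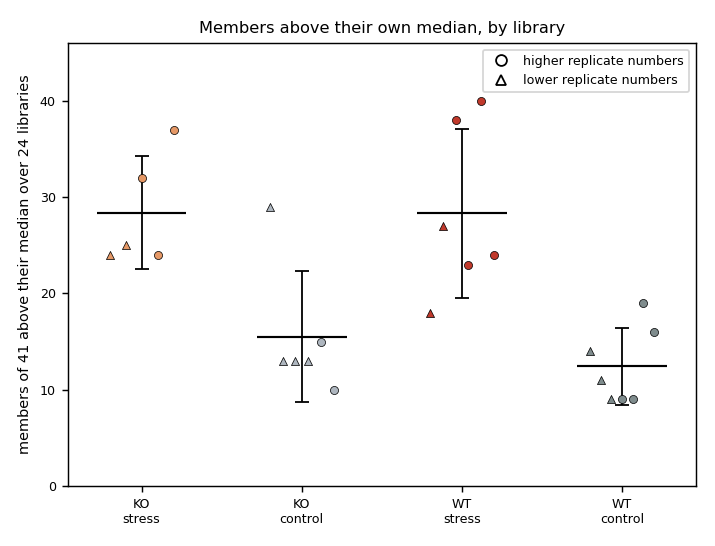
Number of the 41 members above their own median over all 24 libraries, 1 point per library, with the group mean and SD; circles are libraries with higher and triangles those with lower replicate numbers. KO stress spans 24 to 37 and KO control 10 to 29, and WT stress spans 18 to 40 and WT control 9 to 19.

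Some marker sums of blood and vessel cells also stood higher under stress. The summed monocyte and neutrophil markers were 18.0, 13.7, 15.6, 35.7 and 40.8 CPM in KO stress, against 7.75 to 13.7 CPM in KO control. In WT stress the sums were 11.3, 16.6, 36.5, 48.9, 74.7 and 35.8 CPM, against 8.17 to 13.9 CPM in WT control. Of the 10 tested markers of that list none passed in KO, S100a8, S100a9 and Retnlg rose in WT, and no gene of the 14 listed was at 0 in every library. Summed red blood cell markers were 95.9 to 134 CPM in KO stress, against 69.4 to 90.5 CPM in KO control, and 105 to 150 CPM in WT stress, against 69.9 to 86.5 CPM in WT control. Of these, Alas2 rose in KO and Alas2 and Hba-a2 rose in WT, among 5 tested of 7 listed, with Hbb-bt at 0 throughout. Summed endothelial markers were 437 to 586 CPM in KO stress, against 419 to 481 CPM in KO control, and 482 to 569 CPM in WT stress, against 408 to 475 CPM in WT control, and none of 15 passed in either genotype. Summed microglial markers were 501 to 687 CPM in KO stress, against 463 to 561 CPM in KO control, and 509 to 765 CPM in WT stress, against 461 to 605 CPM in WT control, and none of 14 passed. Their median sum was 532 CPM in KO stress, against 536 CPM in KO control, and 639 CPM in WT stress, against 560 CPM in WT control. By direction, 14 of the 15 endothelial markers were above 0 in KO and 15 in WT. An unadjusted p under 0.05 (edgeR) on the higher side was found for 2 in KO and 7 in WT. Of the 10 monocyte and neutrophil markers 7 in KO and 10 in WT had one, and of the 14 microglial markers 0 and 3. Of the 5 red blood cell markers 4 had one in each genotype. Over all genes the share was 2.26% in KO and 2.97% in WT. Summed lymphocyte markers were 2.15 to 5.09 CPM in KO stress, against 1.92 to 12.8 CPM in KO control, and 1.73 to 4.15 CPM in WT stress, against 1.44 to 2.92 CPM in WT control. The list of plasmacytoid dendritic cell markers includes the member Bst2 and shares Siglech with the microglial list, so its sum is not particular to these cells. That sum had medians of 182 CPM in KO stress, against 195 CPM in KO control, and 229 CPM in WT stress, against 236 CPM in WT control. None of the 3 tested lymphocyte and 4 tested dendritic cell markers passed or had an unadjusted p under 0.05 in either genotype. The part of these cells in the members' values was not tested, and in bulk tissue more cells of a type and more RNA per cell cannot be told apart.

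Between library classes, 4 members were higher in the high-numbered libraries, which is 9.76% and close to the 11.2% of all genes called higher in that contrast, and none was lower, against 9.56% of all genes. They were Irf1 (0.48 ± 0.10), Ifitm2 (0.38 ± 0.10), Ifitm3 (0.38 ± 0.13) and Gbp3 (0.47 ± 0.17), with adjusted p = 0.00130, 0.00616, 0.0401 and 0.0486 in edgeR. Cell and region markers differed between the classes too. Higher in the high-numbered libraries were 10 of 12 hippocampal neuron, 8 of 14 microglial and 7 of 10 monocyte and neutrophil markers. Of the 10 thalamus and habenula markers 2 were lower, and no choroid plexus marker passed. The part of these tissues and cells in the class contrast was not tested. The averaged stress effect within the classes, 7 stress against 6 control libraries in the high-numbered and 4 against 7 in the low-numbered class, was nearly equal for Isg20 (1.34 and 1.33) and Ube2l6 (0.74 and 0.73). Ifitm1 had 0.97 in the high-numbered and 0.26 in the low-numbered class, Isg15 0.81 and 0.41, Rsad2 1.32 and 0.83, and Ifitm3 0.77 and 0.48. No member passed a test of the difference between classes in edgeR, against 0.0184% of all genes. Only Ifitm1 had an unadjusted p under 0.05 there (0.71, adjusted p = 0.273), which is 2.44% of the members against 9.51% of all genes on the higher side, and DESeq2 called no member. The difference was above 0, with the larger stress effect in the high-numbered class, for 34 members (82.9%, against 54.6% of all genes). Its median was 0.21 for the members, against 0.03 for all genes.

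**Figure D5:**
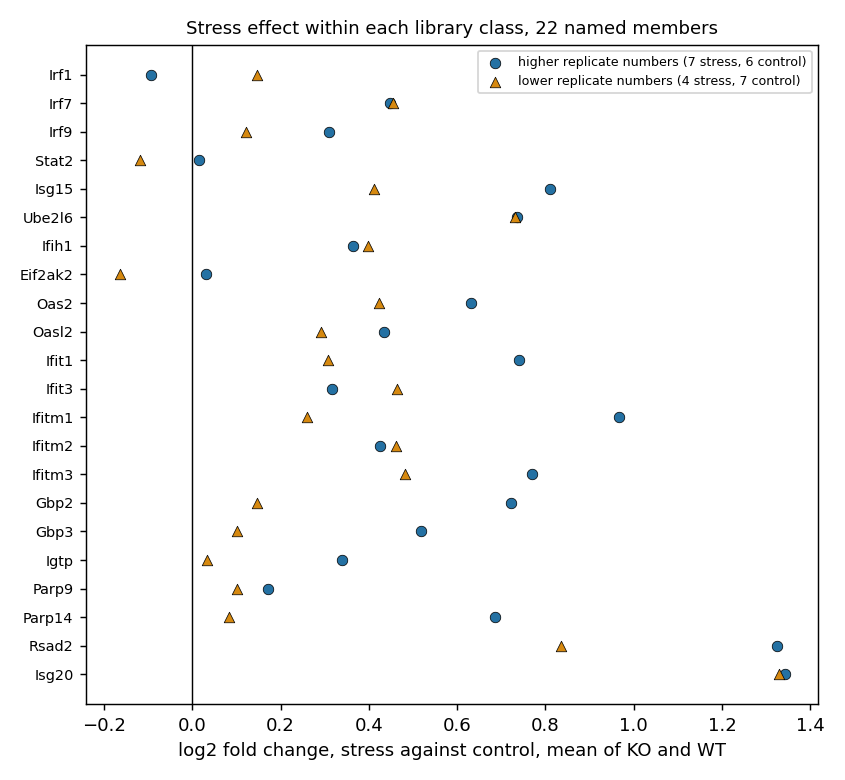
Stress effect averaged over KO and WT (log2 fold change) within the high-numbered class (circles) and the low-numbered class (triangles) for the 22 named members. Isg20 and Ube2l6 have nearly equal effects in both classes, and Ifitm1 lies at 0.97 in the high-numbered and 0.26 in the low-numbered class.

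Genotype was also compared within controls and within stress. In KO control against WT control no member passed in edgeR, against 0% of all genes. The median was 0.07, and Irf9, Sp100 and Rsad2 had an unadjusted p under 0.05 on the higher side (7.32%, against 1.66% of all genes). In KO stress against WT stress no member passed in edgeR either, against 0% of all genes, with a median of -0.03. Ifitm1 alone had an unadjusted p under 0.05 there (-0.47, adjusted p = 0.798 in edgeR), a side on which 1.95% of all genes had one. DESeq2 called no member in controls and no member under stress.

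Of 82 other genes of the interferon pathway on a separate list, 81 were in the table and 68 were tested, and none passed for stress in KO or WT in edgeR, with an unadjusted p under 0.05 for 2 in KO (2.94%, against 2.26% of all genes on the higher side) and 11 in WT (16.2%, against 2.97%), all higher. The interferons themselves were hardly detected. The 10 interferon genes on the list had 25 reads in all over 24 libraries, at most 4 in 1 library, with 7 reads for Ifng and 0 for Ifnb1, so that no change in them was detectable at this depth. The receptor genes were well expressed, with means over all libraries of 44.4 CPM for Ifnar1, 21.6 CPM for Ifnar2, 14.7 CPM for Ifngr1 and 59.4 CPM for Ifngr2. Their log2 fold changes were 0.01, -0.02, 0.14 and -0.05 in KO and -0.02, 0.15, 0.11 and -0.13 in WT. Irf3, a factor that induces interferon genes, with 29.0 CPM, had log2 fold changes of -0.03 in KO and -0.0033 in WT. The 10 receptors, kinases and STATs had median log2 fold changes of 0.03 in KO and 0.05 in WT.

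Another 36 tested interferon-stimulated genes outside the 41 were on the same list, which was also chosen with earlier results of these data known. Their log2 fold change was above 0 for 31 in KO (86.1%) and 32 in WT (88.9%), against 51.4% and 49.5% of all genes, with medians of 0.31 and 0.36. On the higher side 2 in KO (5.56%, against 2.26% of all genes) and 9 in WT (25.0%, against 2.97%) had an unadjusted p under 0.05. None passed, and the lowest adjusted p in edgeR was 0.104 for Slfn2 in WT (0.82 ± 0.19). In the class contrast, 16 of the 68 pathway genes (23.5%, against 11.2% of all genes) were higher in the high-numbered libraries, namely Ifnar2, Ifngr2, Il10rb, Tyk2, Tlr3, Tmem173, Irf8, Aim2, Ptpn6, Ifi203, Gbp4, Gbp5, Iigp1, Nmi, Sp110 and Ifi30. The 3 that were lower there (4.41%, against 9.56% of all genes) were Jak2, Adar and Herc6.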

How the data were processed

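Hippocampal RNA was sequenced in 24 libraries, and the authors deposited whole-number read counts per gene symbol, not normalized. Per the submitters' processing notes the tools were STAR and DESeq2 with build mm10, with roles and versions not stated. The read counter, its use of strand and its treatment of reads shared by copies are unknown here. Of counts from 1 to 10 in a library, 70.9% to 75.8% were even, so mates of a pair seem to be counted singly. The authors' normalized table and their table of 1 unnamed comparison were not used.

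Counts were tested in R 4.3.3 with edgeR 4.0.16 (TMM factors, minimum count 10 in its expression filter, robust quasi-likelihood F test) in 1 fit of 4 group means, which left 20 residual degrees of freedom. Of 24062 genes, 3153 had no count and 16313 were tested, with a Benjamini-Hochberg threshold of 0.05 over those genes. An SE was derived from each log2 fold change and the square root of its F. CPM uses TMM-scaled library sizes, and CPM per kb divides by the exon length of GENCODE for the same build. The replicate class was fitted as a term in the class contrast and in 8 means for the difference between classes. DESeq2 1.42.0 was an alternative. The fit was tested on simulated data with known changes. No 2 libraries of a group agreed within sampling noise (smallest mean chi-square per gene 8.88). Intervals by 3 reads cover counting error only.

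The members, the other gene lists and the library classes were chosen with earlier results of these data known. Named members were those called in any of the 8 comparisons, the 2 of each role with the smallest p in WT stress against WT control, and always Isg15, Irf7, Stat2 and Ifit3. Other settings were RLE factors, no filter, a stricter filter (1 CPM in 5 libraries), the class as a term, each class alone, a replicate block, leaving out each library, and leaving out the 3 libraries with high thalamic markers.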

Additional observations from a re-analysis of the deposited data

Results flagged for a closer look

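In KO control libraries, replicate 1 stood apart from the other 5 for 3 members. Gbp3 had 4.05 CPM there, against 2.98 CPM in the next highest library, Oas1a had 2.10 CPM, against 0.960 CPM, and Ifi35 had 6.70 CPM, against 3.34 CPM. The same library had 29 of the 41 members above their own median, against 10 to 15 in the other KO controls. In KO stress libraries, Ifit2 had 4.09 CPM in replicate 4, against 6.84 CPM in the next lowest library. In WT stress libraries, Ifi35 had 5.44 CPM in replicate 2, against 4.44 CPM in the next highest. Each of these 5 values was separated from the nearest library of its group by a gap that was large for the range of the group. They were found among 164 combinations of the 41 members and 4 groups, which is fewer than the about 1 in 20 that chance alone sets apart.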

How the results depend on the processing

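No value past the test changed sign. Of the stress effects of the 22 named members, 13 of 726 recomputed values in KO (7 members) and 5 of 726 in WT (4 members) had the other sign, none of them past the test. These members were chosen in part by a small p in WT, so the KO and WT numbers are not comparable. Most of the settings left out a single library and so share nearly all their data. In the low-numbered libraries alone, Gbp3 was at -0.11 in KO, and Igtp at -0.07, Parp14 at -0.08 and Stat2 at -0.09 in WT. In KO, Igtp was at -0.10 and Parp9 at -0.11 without the 3 libraries with high thalamic markers, and Igtp at -0.07, Parp9 at -0.03 and Oas2 at -0.09 without KO stress replicate 5. The other values of this kind were those of Irf1, Irf9, Oas2 and Stat2 in KO and Irf1 in WT. Of the counts and medians recomputed, 480 stayed near the main value and 36 moved. In WT, the 3 calls became 7 with DESeq2 (Irf7, Isg15, Ube2l6, Ifitm1, Ifitm3, Rsad2 and Isg20), 1 in the high-numbered libraries alone (Ifitm1) and 0 in the low-numbered alone, where the median was 0.196. In the averaged effect the 4 calls became 7 with DESeq2, 0 in the low-numbered libraries alone (median 0.146) and 2 without the 3 libraries with high thalamic markers (median 0.208), and the median was 0.419 in the high-numbered alone. Fewer libraries entered the fits of 1 class or without the 3. The share of all genes called under each other setting is not given in this section, so these counts describe the members alone. Without those 3 libraries the median was 0.201 in WT, 0.0310 in the class contrast and 0.04999 for the difference between classes. KO against WT in the low-numbered libraries alone had medians of 0.191 in controls and 0.163 under stress, where the value over all libraries was -0.03, and the cause was not tested.

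Leaving out 1 library gave 2 to 4 calls in WT (median 0.199 without WT stress replicate 5 to 0.411), 2 to 6 in the averaged effect (median 0.241 to 0.367), 2 to 4 in the class contrast (median 0.0566 to 0.168) and 0 in the other comparisons. Ube2l6 and Isg20 stayed called in all 24 such fits, in WT and on average. Ifitm1 lost its WT call (adjusted p up to 0.112, edgeR) without WT stress replicate 3, 4, 5 or 6 or WT control replicate 1, 4, 5, 6 or 7. On average Ifitm1 and Ifitm3 each kept their call in 10 of 24 fits (adjusted p up to 0.105). With the class as a term, Ifitm3 was called in WT (0.0337) and Ifitm1 was not called on average (0.0699).

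Same-numbered libraries did not deviate together in every pair (correlations of -0.278 to 0.489). Some of these pairs held libraries of different classes, so the values cannot tell whether the numbers pair the samples. With the replicate block 0 members were called in KO, 2 in WT (Ube2l6 and Isg20), 4 on average (Ube2l6, Ifitm2, Ifitm3 and Isg20) and 0 in the class contrast. For most replicate numbers all libraries belong to the same class, so the block leaves little from which to estimate the class contrast. Members with few reads, such as Ifi44, Rsad2 and Oas1a, had the widest relative spread within groups.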
